A study of Bos taurus with 4 samples.

Results

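The proteasome genes measured here were the genes whose symbol begins with PSMA, PSMB, PSMC, PSMD, PSME, PSMF or PSMG, found through the RefSeq accession of each array probe. The RefSeq table of the cow lists 50 such genes, and 35 of them had a probe, out of 7788 named genes on the array. The 35 genes comprised 7 alpha subunits and 5 constitutive beta subunits of the 20S core particle, 2 immunoproteasome beta subunits (PSMB8 and PSMB9), 5 ATPases and 9 non-ATPase subunits of the 19S cap, the activator subunits PSME1 and PSME2, 3 assembly chaperones, the thymus-specific beta subunit PSMB11 and PSME3IP1. The last of these carries the prefix but encodes a protein that binds an activator and is no subunit. The other 15 genes, PSMA8, PSMB1, PSMB6, PSMB10, PSMC3IP, PSMC6, PSMD5, PSMD7, PSMD8, PSMD9, PSMD10, PSME3, PSME4, PSMF1 and PSMG4, matched no probe and were not analysed here.

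The proteasome is the large protease that degrades proteins tagged with ubiquitin. Its core is a barrel of outer alpha rings, which gate the entrance, and inner beta rings, which hold the cutting sites. The 19S cap binds ubiquitin chains, removes them and unfolds the substrate with its ring of ATPases. Under interferon the cutting subunits are replaced by immunoproteasome subunits, which favour peptides for MHC class I, and the PSME1 and PSME2 activator opens the barrel without the cap. In skeletal muscle this system breaks down myofibrillar proteins once ubiquitin ligases such as TRIM63 have marked them, and it is induced in atrophy.

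RNA came from the semitendinosus, a hind-limb muscle, of bulls aged 15 months. The beef breed was Limousin (LIM) and the dairy breed, used as the reference, was Holstein-Friesian (HF), and neither group received a treatment or carried an allele named in the labels. Each of 4 two-colour arrays held RNA of 1 LIM bull in the Cy5 channel and of 1 HF bull in the Cy3 channel, so that each value below is a log2 ratio of LIM over HF on one array, and positive values mean a brighter LIM channel. The LIM RNA was always in Cy5, and therefore the effects of breed and of dye cannot be told apart. By these dye labels the ratio of the myostatin gene MSTN was 0.68 ± 0.13 and that of the follistatin gene FST was −1.0 ± 0.20 (mean ± moderated SE, n = 4). The study's text gives both genes, and TRIM63 among the ligases below, the opposite direction. The mismatch was not limited to these genes. ADAMTS1, which the study lists as higher in LIM, was −1.37 ± 0.19 here. BMPR1A, which it reports as lower, was 0.35 ± 0.07. No full comparison with the study's lists is given here. Its qPCR also found FST higher and MSTN lower in LIM, and its Western blot found less myostatin protein in LIM. Which direction is right could not be settled from the array data, and the sign of every ratio below depends on these labels. A whole muscle sample holds several cell types, and fewer cells of a type and less RNA per cell cannot be told apart in it.

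All 4 arrays were on 1 slide. Of 42990 spots per array, 32513 to 33527 passed the scanner's background test for LIM and 27102 to 28769 passed it for HF, and no spot was saturated. Correlations between arrays across the 15856 probes kept for testing were 0.40 to 0.60, and these probes are not independent replicates. The 10 muscle fibre markers measured, among them ACTA1, CKM and MYH1, were well above background in both channels of every array. The 35 proteasome genes had 1 probe each, and each probe exceeded background in the 2 channels of every array, which held for 78.4% of the kept probes. All 35 therefore entered the test.

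No proteasome gene passed the test at an adjusted p below 0.05 (limma with Benjamini-Hochberg adjustment), in either direction. Among all kept probes 5.47% passed, 2.96% as higher in LIM and 2.51% as lower. Without adjustment 6 of the 35 genes were higher and 3 were lower at p below 0.05, against 15.1% and 12.2% of the kept probes. The mean ratio was above 0 in 20 of 35 genes, against 54.3% of the kept probes, and the median over the 35 genes was 0.08, against 0.018 over the kept probes. A miss at the threshold does not show equal levels: the 95% interval of the ratio lay within a 2-fold change in either direction for 30 of the 35 genes (92.9% of the kept probes) and within a 1.5-fold change for 17 (73.5%).

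**Figure D1:**
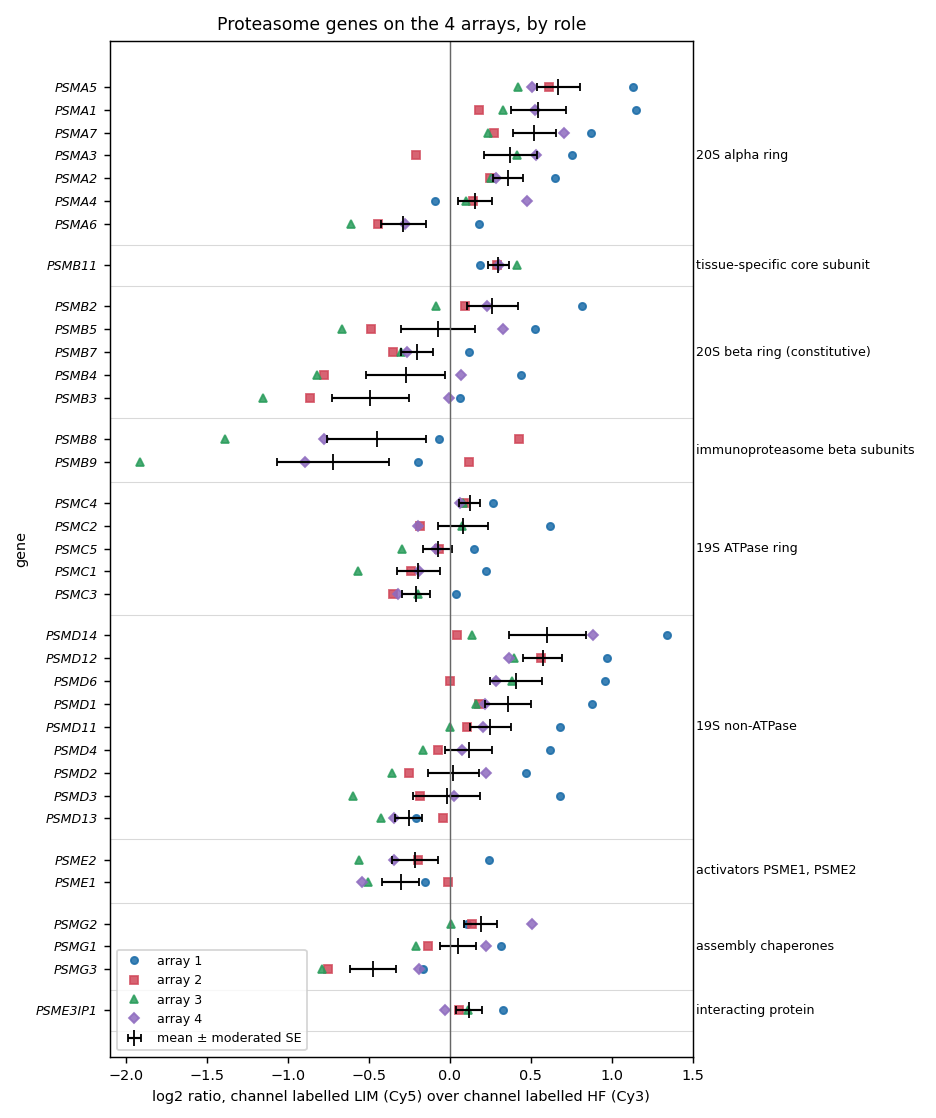
Log2 ratio of the LIM over the HF channel (x axis) of each of the 35 proteasome genes (y axis), grouped by role. Coloured symbols are the 4 arrays and black ticks are means with the moderated standard error. Most alpha ring genes sit to the right of 0, most beta ring genes straddle it, and array 1 is the rightmost symbol in 28 genes.

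The median ratio differed between roles, which is given as a description with no test. On the loess-normalized scale the median of the mean ratios was 0.37 over the 7 alpha subunits and −0.20 over the 5 constitutive beta subunits, although both rings make up the same particle. It was −0.076 over the 5 ATPases and 0.25 over the 9 non-ATPase subunits of the cap, and 0.049 over the 3 assembly chaperones. It was −0.26 over PSME1 and PSME2 and −0.59 over the 2 immunoproteasome subunits. Single arrays carried much of these medians. Without array 1 they were −0.31 for the beta ring, −0.15 for the ATPases, 0.10 for the non-ATPase subunits and −0.040 for the chaperones. Without array 2 they were 0.57 for the alpha ring, −0.11 for the beta ring and 0.11 for the chaperones. Without array 3 they were −0.090 for the beta ring, −0.0020 for the ATPases, 0.13 for the chaperones, −0.17 for PSME1 and PSME2 and −0.23 for the immunoproteasome subunits, and without array 4 the chaperones were at −0.0097. With each array centred on its median in place of loess, the medians of the beta ring, the ATPase ring and the PSME1 and PSME2 pair turned positive, at 0.48, 0.62 and 0.38.

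**Figure D2:**
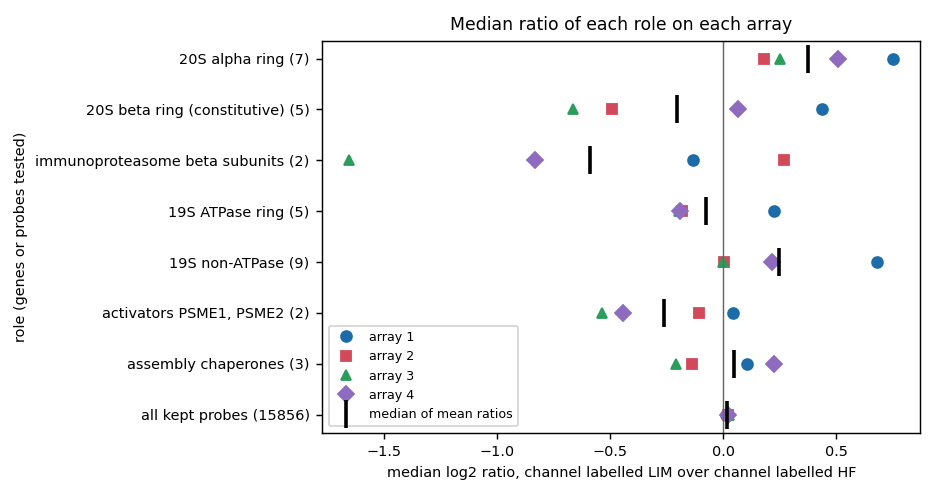
Median log2 ratio of the LIM over the HF channel (x axis) in each role (y axis, with the number of genes), on each array (symbols) and over the mean ratios (black bar). The alpha ring lies above 0 on all 4 arrays, from 0.18 to 0.75, while the beta ring runs from −0.67 on array 3 to 0.44 on array 1 and all kept probes lie near 0.

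In the alpha ring 4 of 7 genes were above 0 on all 4 arrays, and in the 19S non-ATPase subunits 5 of 9 were above and 1 below. Of the kept probes 21.2% were above and 15.7% below on all 4. PSMA5 (alpha5) had log2 ratios of 1.13, 0.61, 0.42 and 0.51 on arrays 1 to 4. The normalized log2 signals of the 4 LIM bulls, 13.17 to 13.39, lay above those of the 4 HF bulls, 12.03 to 12.77, with no overlap. Its mean of 0.67 ± 0.13 had the lowest adjusted p of the 35 genes, 0.0548, just outside the threshold (n = 4).

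PSMA7 had ratios of 0.87, 0.27, 0.23 and 0.71 and a mean of 0.52 ± 0.13 (limma adjusted p = 0.0832). PSMA2 had ratios of 0.65, 0.25, 0.25 and 0.28, with a mean of 0.36 ± 0.09 (limma adjusted p = 0.0848). Both lay above 0 on every array, each with its highest value on array 1. PSMA1, at 1.15, 0.18, 0.33 and 0.52, did so too, with a mean of 0.55 ± 0.17 (limma adjusted p = 0.122). The LIM and HF signals did not overlap in PSMA1 or PSMA2 and overlapped in PSMA7.

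PSMA3 and PSMA4 had means of 0.37 and 0.16, each with 1 array below 0. PSMA6 was the exception in the ring, with ratios of 0.18, −0.45, −0.61 and −0.28 and a mean of −0.29 ± 0.14 (limma adjusted p = 0.260). It was above 0 on array 1 alone, and with median centring its mean was 0.40. The alpha ring thus had 6 of 7 means above 0 with loess, against 54.3% of the kept probes, and none passed the test. With median centring it had 7 of 7, a setting that put 34 of the 35 proteasome genes above 0.

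The constitutive beta ring gave the widest swings between arrays among the standard subunits. PSMB3, a beta subunit without a cutting site, had ratios of 0.06, −0.87, −1.15 and −0.0043, and a mean of −0.49 ± 0.24 (limma adjusted p = 0.258). PSMB4, another non-catalytic subunit, had ratios of 0.44, −0.78, −0.82 and 0.068 (mean −0.27 ± 0.24). PSMB5, which carries the chymotrypsin-like activity, had ratios of 0.52, −0.49, −0.67 and 0.33 (mean −0.08 ± 0.23). In all 3 genes arrays 2 and 3 were low and arrays 1 and 4 were higher, so that the means near or below 0 joined values of opposite sign.

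PSMB7, with trypsin-like activity, had ratios of 0.12, −0.35, −0.30 and −0.27 and a mean of −0.20 ± 0.10. PSMB2 was the only one of the 5 with a mean above 0, at 0.26 ± 0.16, with 0.82, 0.092, −0.088 and 0.23. Under median centring all 5 means were positive, PSMB3 at 0.15, PSMB4 at 0.42, PSMB5 at 0.59, PSMB7 at 0.48 and PSMB2 at 0.87. The median SD between arrays was 0.59 in this ring, against 0.32 in the alpha ring and 0.19 over all kept probes.

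**Figure D3:**
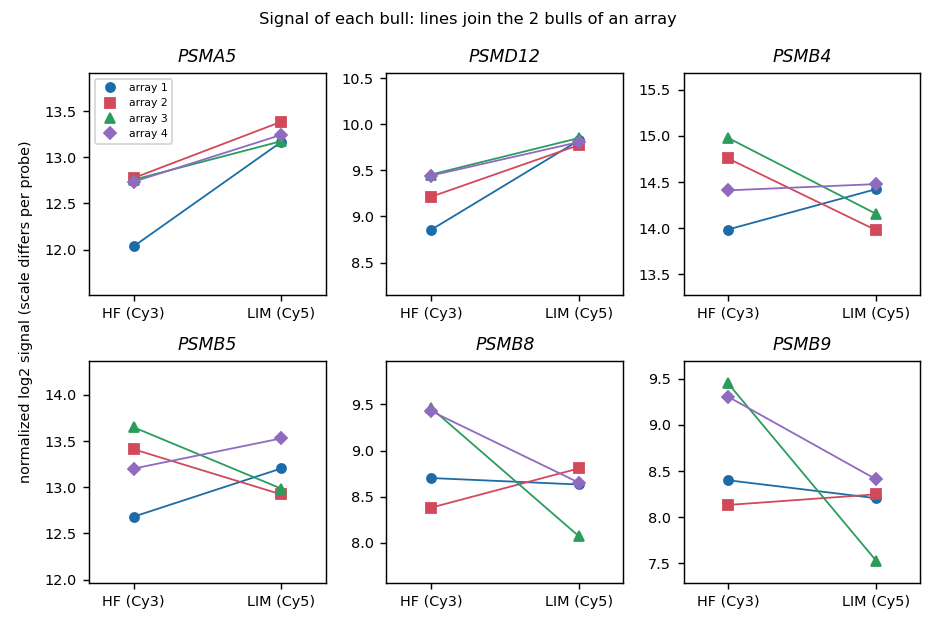
Normalized log2 signal (y axis, each probe on its own scale of equal span) of the HF bull (Cy3) and the LIM bull (Cy5) of each array for 6 genes, with a line joining the 2 bulls of an array. In PSMA5 and PSMD12 the lines all rise and the HF bull of array 1 is lowest; in PSMB4 and PSMB5 the lines cross, and in PSMB8 and PSMB9 the lines of arrays 3 and 4 slope down from HF to LIM.

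Of the immunoproteasome subunits, PSMB9 (beta1i) had log2 ratios of −0.19, 0.12, −1.92 and −0.89, with a mean of −0.72 ± 0.35 (limma adjusted p = 0.253). PSMB8 (beta5i) had −0.07, 0.43, −1.39 and −0.78, with a mean of −0.45 ± 0.31 (limma adjusted p = 0.401). Both genes were low on arrays 3 and 4 and near or above 0 on arrays 1 and 2, and the signals of the breeds overlapped. In PSMB9 the LIM bull of array 3 had the lowest signal of the 8 bulls, 7.53, and the HF bull of the same array the highest, 9.45.

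PSMB9 was the only one of the 35 genes whose mean stayed below 0 under median centring, at −0.29, while PSMB8 went to 0.021. The 2 genes lie near each other in the MHC region, with 1 protein-coding gene between them in the RefSeq order. The activator subunits, also induced by interferon, had the same low arrays. PSME1 had ratios of −0.16, −0.015, −0.51 and −0.54 and a mean of −0.31 ± 0.11 (limma adjusted p = 0.164), and it was below 0 on all 4 arrays. PSME2 had 0.24, −0.20, −0.56 and −0.35 and a mean of −0.22 ± 0.14 (limma adjusted p = 0.381). Under median centring the means of PSME1 and PSME2 were 0.31 and 0.44.

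PSMB8 takes the place of PSMB5 in the immunoproteasome, so the ratio of the first minus that of the second was taken on each array. It was −0.59, 0.92, −0.72 and −1.10 on arrays 1 to 4, a mean of −0.38 ± 0.89 (SD, n = 4). The difference was negative on 3 of 4 arrays and not distinguishable from 0 (exact two-sided sign-flip permutation test, p = 0.5, where 4 arrays allow no p below 0.125). With median centring the mean was −0.57. The counterpart genes PSMB6 and PSMB10 were not analysed here, which left no such difference for PSMB9 or PSMB7.

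Some markers of immune cells were low on the same arrays as the immunoproteasome, and others were not. Of the leukocyte list 5 of 8 genes were measured, with array medians of −0.035, 0.0059, −1.02 and −0.56, and none passed the test. Of the macrophage and MHC class II list 5 of 8 were measured, with array medians of 0.12, −0.18, −1.28 and −0.93, and none passed. CD74, the MHC class II invariant chain, had −0.66, 0.019, −1.28 and −0.93, and CORO1A, an actin-binding protein of leukocytes, had 0.11, −0.16, −1.24 and −0.81. The means of the 5 macrophage and MHC class II markers were below 0 with loess and with median centring, from −0.83 to −0.17 and from −0.34 to −0.12. Only CD74 among these 5 belongs to MHC class II, so the list does not describe that class as a whole. T cell markers differed among themselves, with −0.23, −0.30, −1.02 and −0.56 for CD3E and values between −0.035 and 0.074 for CD2. CD79A, also of the leukocyte list, had −0.22, 0.0059, 0.051 and −0.16. CD14, of the macrophage list, had −0.15, −0.41, −0.46 and −0.94. Low values on array 3 were not limited to immune markers. Array 3 medians were −1.06 for adipocyte, −0.61 for endothelium, −0.062 for fibre, 0.23 for erythrocyte and 0.63 for fibroblast markers. On array 4 they were 0.35, 0.043, 0.19, −0.54 and 0.85. Single fibre markers lay far from their median, from −1.54 (MYH2) to 1.91 (ACTA1) on array 3. Of the 10 fibre markers 2 passed the test as higher, MB (mean 1.02) and TNNC2 (mean 0.68), against 2.96% of the kept probes. None passed as lower, and MYH7 (mean −1.06) was below 0 on all 4 arrays. Among adipocyte markers CFD had −1.59 and −1.64 on arrays 3 and 4, and FABP4 had −1.06 and 2.67.

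The summed linear signal of the macrophage list was 2469 to 4528 in the LIM channel and 3810 to 10401 in the HF channel, and that of the leukocyte list 1319 to 1722 and 1429 to 2012, so that the ranges overlapped. All 10 of these probes were well above background in both channels of every array. The part of immune cells in the PSMB8, PSMB9, PSME1 and PSME2 ratios was not tested. Of the MHC class I loading list 5 of 12 genes were measured and none passed, with a median of −0.13. B2M, the light chain of MHC class I, had ratios of 0.23, 0.33, −1.46 and −0.018, low on array 3 only, and ERAP1, which trims peptides, had 0.84, 0.62, −1.13 and 0.42.

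**Figure D4:**
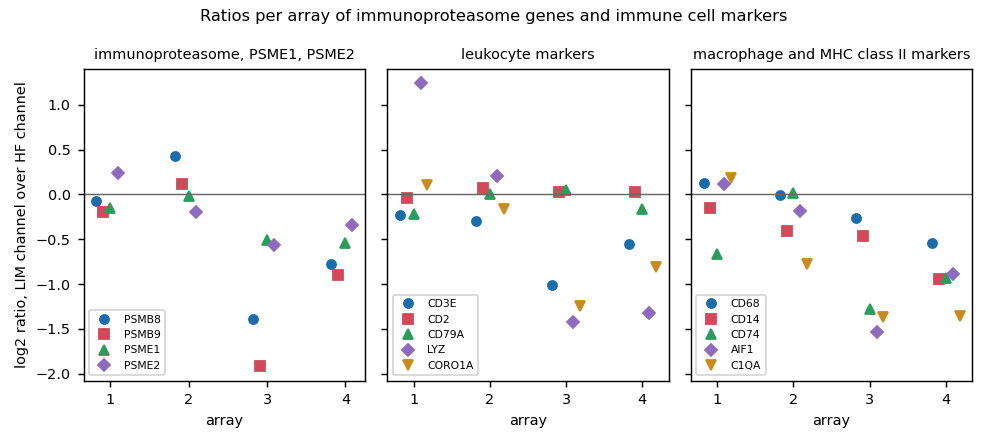
Log2 ratio of the LIM over the HF channel (y axis) on each array (x axis, a label and not an order) for the immunoproteasome and activator genes (left), 5 leukocyte markers (middle) and 5 macrophage and MHC class II markers (right). PSMB8, PSMB9, CD74, AIF1, C1QA, CORO1A and LYZ are all well below 0 on arrays 3 and 4, and CD2 and CD79A stay near 0.

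In the 19S cap the means with loess lay closer together in the ATPase ring than in the other subunits. The 5 ATPases, which unfold the substrate, had means between −0.21 (PSMC3) and 0.12 (PSMC4). PSMC3 had ratios of 0.040, −0.35, −0.20 and −0.32 (mean −0.21 ± 0.09, limma adjusted p = 0.203). PSMC4 had 0.26, 0.085, 0.081 and 0.061 (mean 0.12 ± 0.07, limma adjusted p = 0.298) and was the only ATPase above 0 on all 4 arrays. PSMC1, PSMC2 and PSMC5 lay in between, with means of −0.19, 0.08 and −0.08. Single arrays ranged further, from −0.57 to 0.22 in PSMC1 and from −0.20 to 0.62 in PSMC2. Under median centring PSMC3 was at 0.45 and PSMC4 at 0.77.

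Among the 9 non-ATPase subunits, PSMD12, a scaffold subunit of the lid, had ratios of 0.97, 0.56, 0.40 and 0.36. Its LIM signals, 9.77 to 9.85, lay above its HF signals, 8.85 to 9.45, and its mean of 0.57 ± 0.12 had an adjusted p of 0.0594 (limma, n = 4). PSMD14, the enzyme that cuts ubiquitin chains off the substrate, had 1.34, 0.046, 0.14 and 0.89. Its mean of 0.60 ± 0.24 was the highest of the cap, but arrays 2 and 3 were close to 0 and the adjusted p was 0.187.

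PSMD1, a large scaffold subunit at the base of the cap, had 0.88, 0.18, 0.16 and 0.22 (mean 0.36 ± 0.14, limma adjusted p = 0.184). PSMD6 and PSMD11, both lid subunits, had means of 0.41 ± 0.16 and 0.25 ± 0.13 and were above 0 on every array. PSMD4, which binds ubiquitin chains, PSMD2 and PSMD3 had means of 0.12, 0.02 and −0.02. PSMD13, another lid subunit, went the other way, with −0.21, −0.040, −0.42 and −0.35 (mean −0.26 ± 0.08, limma adjusted p = 0.133). It was below 0 on every array with loess, and its mean was 0.41 under median centring.

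The assembly chaperones, which guide the building of the alpha ring, had unlike ratios. PSMG3 had −0.16, −0.75, −0.79 and −0.19, and its mean of −0.47 ± 0.14 (limma adjusted p = 0.111) became 0.066 under median centring. Its LIM signals, 9.05 to 9.35, lay below its HF signals, 9.40 to 9.99, without overlap. PSMG2, which pairs with PSMG1, had 0.11, 0.14, 0.0039 and 0.51 (mean 0.19 ± 0.10, limma adjusted p = 0.291), and PSMG1 had a mean of 0.05.

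PSMB11 is known as the beta subunit of the thymus. Its probe was nonetheless above background in all 8 channels, with ratios of 0.19, 0.29, 0.41 and 0.30. It was the dimmest of the 35, at a mean log2 signal of 7.43 against a median of 12.03. Its SD was 0.092 between arrays and 0.056 between duplicate spots. The LIM signals, 7.50 to 7.65, lay above the HF signals, 7.18 to 7.42, and the mean of 0.30 ± 0.07 had an adjusted p of 0.0643 (limma, n = 4). It is the immediate neighbour of PSMB5 in the RefSeq order, and whether its probe read PSMB11 transcripts alone was not tested. PSME3IP1 had a mean of 0.12 ± 0.08, with 1 array below 0.

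Over the 35 genes, the LIM and HF signals were free of overlap in 6. In PSMA1, PSMA2, PSMA5, PSMB11 and PSMD12 all 4 LIM bulls were above all 4 HF bulls (background 9.52% of the kept probes), and in PSMG3 they were all below (background 7.33%). The ratio was above 0 on all 4 arrays in 12 genes, against 21.2% of the kept probes, and below 0 on all 4 in 3 genes, PSMD13, PSME1 and PSMG3, against 15.7%.

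The arrays differed from each other more in these genes than in the kept probes as a whole. The ratio was highest on array 1 in 28 of 35 genes, against 26.6% of the kept probes and 34.9% of the 3964 brightest ones. It was lowest on array 3 in 21, against 27.3% and 29.2%. The number of genes above 0 was 29, 17, 16 and 21 on arrays 1 to 4, and the median ratio was 0.33, −0.015, −0.17 and 0.076. The median SD between arrays was 0.34, against 0.19 over the kept probes. These genes were also brighter, with a median log2 signal of 12.03 against 7.94, and no SD over the brightest probes is given here. The median over the 35 genes was −0.054 without array 1, 0.14 without array 2 or array 3 and 0.050 without array 4.

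When the channels were separated, the signals in the channel labelled HF spread more than those in the channel labelled LIM. Were the channel labels exchanged, the wider spread would belong to the LIM bulls. By the labels, the SD between the 4 HF bulls was larger than that between the 4 LIM bulls in 33 of 35 genes (66.9% of the kept probes). The median SDs were 0.29 and 0.12 on the log2 scale, against 0.17 and 0.13 over the kept probes. The HF bull of array 1 had the lowest signal of the 4 HF bulls in 29 genes (32.8% of the kept probes), and the HF bull of array 3 the highest in 24 (28.8%). Among the 3964 brightest kept probes these shares were 70.9% for the larger HF spread and 37.5% for the HF bull of array 1. The LIM bull of array 1 was the highest of its breed in 8 genes and the lowest in 8. For PSMD14, for example, the HF signals were 10.88, 11.82, 12.04 and 11.31 and the LIM signals 12.22, 11.86, 12.18 and 12.20.

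This order of the arrays depended on the normalization. With median centring array 1 was the highest in 0 of 35 genes, against 23.1% of the kept probes and 1.11% of the 3964 brightest ones, and array 3 in 20. The HF bull of array 1 was the lowest in 9, and the HF spread was the larger in 7. The processed signals of the scanner software, which are also corrected for a dye bias that varies with brightness, gave 27, 29 and 33 genes for array 1, the HF bull of array 1 and the HF spread. No share of the kept probes is given here for the processed signals. The same holds for array 3, the HF bull and the HF spread with median centring.

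The direction of many genes depended on it as well. With median centring 34 of 35 means were above 0 and 22 genes passed the test as higher in LIM, against 22.2% of the kept probes, and 0 as lower, against 1.73%. The median over the 35 genes was then 0.71. The proteasome probes were bright, with 30 of 35 among the 3964 brightest of the kept probes. Over those 3964 probes the median ratio was 0.64 with median centring and 0.017 with loess, and 43.1% passed as higher with median centring, while 8.07% passed in either direction with loess. Over the 3964 dimmest kept probes, which held no proteasome gene, the median ratio was −0.24 with median centring. Median centring also moved the median of all kept probes by 0.25.

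**Figure D5:**
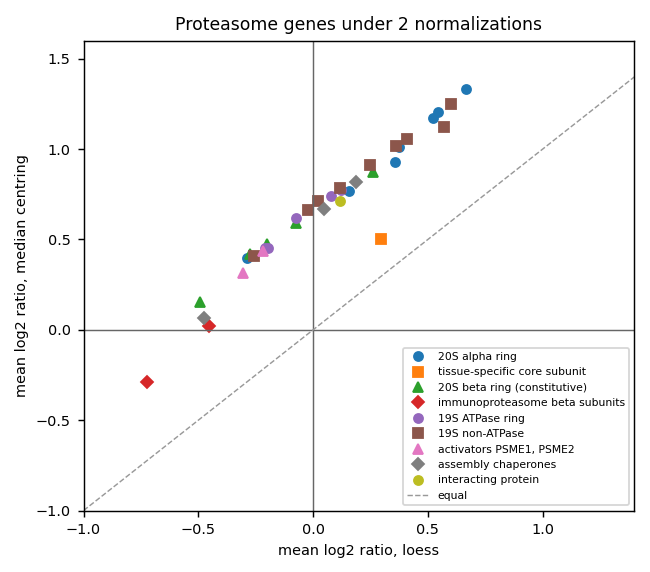
Mean log2 ratio of the LIM over the HF channel with loess (x axis) and with each array centred on its median (y axis) for the 35 proteasome genes, coloured by role, with a dashed line of equal values. All points lie above the line, and PSMB9 is the only one below 0 on the y axis, at −0.29.

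Other genes of the ubiquitin and proteasome pathway were read from 3 lists. Of the partners that assemble, feed or control the proteasome, 11 of 24 were measured. Their median ratio was 0.30, against 0.018 over the kept probes, and 8 means were above 0, against 54.3% of the kept probes. Of the kept probes 2.96% passed the test as higher. AKIRIN2, which carries proteasomes into the nucleus, passed the test as higher in LIM, with ratios of 0.40, 0.80, 0.52 and 0.39 (mean 0.53 ± 0.09, limma adjusted p = 0.0434), and the other 10 did not. NFE2L1, the transcription factor that drives proteasome genes when the protease is inhibited, had 0.66, 0.71, 0.20 and 0.47 (mean 0.51 ± 0.10, limma adjusted p = 0.0561). The AKIRIN2 call was lost under 11 of 19 other settings, among them each that left out 1 array, with means between 0.44 and 0.57 where it was lost.

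RAD23B, a shuttle for ubiquitinated proteins, had 1.36, 0.54, 0.24 and 0.43, with array 1 again the highest. The deubiquitinases of the cap, UCHL5 and USP14, each had a mean of 0.30. POMP, the maturation factor of the core, had 0.35, −0.47, −0.68 and −0.35 and a mean of −0.29 ± 0.18. Array 1 was the highest and array 3 the lowest, as in PSMA6.

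Of the genes for ubiquitin and its E1 enzymes 5 of 7 were measured and none passed. Their median ratio was −0.045, against 0.018 over the kept probes, with 2 means above 0 and 3 below. UBB, a polyubiquitin gene, had a mean of 0.34 ± 0.11, above 0 on all 4 arrays, and 0.99 under median centring. UBA1, the main E1 enzyme, had 0.07 ± 0.07.

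Of the muscle ubiquitin ligases 3 of 9 were measured and none passed. TRIM63 (MuRF1), a ligase of sarcomere proteins, had ratios of −1.49, −1.54, −0.28 and −0.97 (mean −1.07 ± 0.23, limma adjusted p = 0.0625). The study's text gives this gene the opposite direction. TRIM32, a ligase of actin and desmin, had −0.51, −0.18, −0.74 and −0.43 (mean −0.47 ± 0.10, limma adjusted p = 0.0655), and 0.046 under median centring. Both ligases were below 0 on every array with loess, and with median centring TRIM63 stayed below 0, at −0.40. MUL1 was not well above background in the HF channel of any array.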

How the data were processed

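Labelled RNA of 4 Limousin and 4 Holstein-Friesian bulls was hybridised in pairs to 4 two-colour Agilent bovine arrays. Per the file headers the authors quantified spots with Feature Extraction 10.7.3.1 (probe build HGSC Btau_3.1). The deposited intensity values are each spot's median signal and local background in either dye, not normalized, and its background-subtracted, dye-normalized processed signals. The deposited log10 ratios are processed red over green, and the value table equals them, with column medians of 0.

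With limma 3.58.1 in R 4.3.3, background was corrected by normexp (offset 50) on the median signals, since the files hold no mean foreground signal. Ratios were taken as log2 and normalized within arrays by loess, with control spots at weight 0. Non-uniform spots (5 to 10 per array) were left out and duplicate spots averaged. A probe was kept when one of its channels exceeded background on 3 arrays or more (15856 of 21475). The mean ratio was tested against 0 with limma's moderated test and Benjamini-Hochberg adjustment over all kept probes, at a threshold of 0.05. Channel signals came from Aquantile normalization after loess. The number of arrays, 4 biological replicates per the labels, limits the precision.

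Gene names came from the RefSeq table (ARS-UCD2.0) through accessions (8297 probes, 7788 symbols), with the brightest probe per gene, and no coordinates were used since the builds differ. Genes named were, in each role, the highest and lowest means, the 10 smallest p-values, PSMB5, PSMB7, PSMB8, PSMB9, PSME1 and PSME2, and in each of the other lists the genes past the test or else the 3 smallest p-values; other genes were added to complete a role or a list after their values were seen, and 1 gene that the rule names is not reported here. The members and lists were chosen with earlier results of these data known. Alternatives covered the offset, signal, normalization, filters, variance prior, array weights, the methods' t-test (fold 1.3), unpaired channels and each array left out. The fit was tested on simulated data.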

Additional observations from a re-analysis of the deposited data

Results flagged for a closer look

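In 3 of 38 values checked, 1 array stood far from the other 3, against about 1.9 that chance would give. In each the array was array 1. For PSMD1, a scaffold subunit of the 19S cap, the gap of array 1 (0.88) to the nearest of the others (0.16 to 0.22) was 0.923 of the whole range. For PSMA2, an alpha subunit, it was 0.911 of the range (0.65 against 0.25 to 0.28). For PSMC4, an ATPase of the cap, it was 0.882 of the range (0.26 against 0.061 to 0.085). All 3 genes were above 0 on each of the 4 arrays.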

How the results depend on the processing

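Median centring in place of loess changed the most. It raised the proteasome genes higher in LIM from 0 to 22, the related genes past the test from 1 to 9 and all probes past the test from 867 to 3800. It moved the median over the 35 genes to 0.71, and those of the alpha ring to 1.01, the beta ring to 0.48, the 20S core to 0.82, the ATPase ring to 0.62, the non-ATPase subunits to 0.91, the whole 19S cap to 0.76, PSME1 and PSME2 to 0.38 and the chaperones to 0.67. It turned the sign of PSMC3 (0.45), PSMD13 (0.41), PSMA6 (0.40), PSMB3 (0.15), PSME2 (0.44), PSME1 (0.31), PSMG3 (0.066), PSMB8 (0.021), PSMB5 (0.59), PSMB7 (0.48), PDIA3 (0.22), CALR (0.52), TAPBP (0.26), TRIM32 (0.046) and MUL1 (−0.21). In settings chosen after seeing the data it also took the genes highest on array 1 to 0, those lowest on array 3 to 2, those with the HF bull of array 1 lowest to 9 and those with the larger spread among HF bulls to 7. The cause was not tested. UBA1 was −0.034 as the mean of all its probes. The proteasome genes higher in LIM numbered 2 with an offset of 10, with both channels required on all arrays and with unpaired channels without the replicate block (PSMA5 and PSMD12 each time), 1 with array weights (PSMA5) and 3 by the methods' t-test before adjustment (with PSMA7). The shares of all probes called as higher in these settings are not given here, so these counts are no result about the named genes. The array pairs the bulls, and the unpaired fit gave 0 related genes. Those numbered 2 with an offset of 10, 3 with both channels or array weights, 4 by the t-test before adjustment and 0 after it, with scale normalization, without a filter and with a trended prior. Probes past the test numbered 1336 with processed signals, 1339 in the value table, 1479 and 0 by the t-test before and after adjustment, and 0 with the trended prior. Without each array in turn they numbered 0 to 51, related genes 0 to 0 and proteasome genes 0 in both directions. PSMB5 ran from −0.28 to 0.12 (0.062 without replicate 2) and TAPBP from −0.19 to 0.0030 (without replicate 3). No setting gave a proteasome gene lower in LIM.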
